A study of Mus musculus with 2 samples.

Results

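Ribosome-protected fragments were read from mouse spinal cord for 8 genes that deal with stalled ribosomes, out of 12530 genes in the tables. The 8 were set as a list of Ensembl identifiers of genes known for this task, and the list uses no threshold on a measured value, though it was drawn up with earlier results of these data known. They are the translational GTPases Gtpbp1 and Gtpbp2, the ribosome rescue factor Hbs1l, the stress kinase Eif2ak4 (GCN2) with its activator Gcn1l1 (now named Gcn1), and the quality control factors Zfp598, Ltn1 and Nemf. Symbols follow the list that defined the genes, because the tables give identifiers only.

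The samples were 2 libraries of spinal cord, 1 from wild-type mice and 1 from GarsC201R/+ mice, heterozygotes for the missense allele C201R of the gene for glycyl-tRNA synthetase. For each, lysates of 3 animals were pooled before library construction, so the values hold no spread between animals. The labels used here state neither strain nor sex nor age. The series was designed around ribosome occupancy of glycine codons in the mutant, and the tables used here hold 1 total of reads per gene and no position within it. The tissue was whole spinal cord, in which fewer cells of a type and less RNA per cell cannot be told apart, and without an RNA library neither can mRNA amount and translation. The tables add up to 7771455 wild-type and 3514016 heterozygous reads, so the heterozygous values carry the wider counting error. A check of tissue markers was not made, because no table used here pairs the identifiers with symbols.

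A ribosome that stalls on a message blocks those behind it, and the resulting collision is the signal that the cell reads. Zfp598 is the ubiquitin ligase that marks collided ribosomes, Hbs1l works with Pelo to split a stalled ribosome, and Nemf and Ltn1 act on the large subunit that is left with an unfinished chain, Nemf by extending the chain and recruiting Ltn1, and Ltn1 by ubiquitinating it. Gcn1 binds collided ribosomes and is needed for GCN2 to phosphorylate the initiation factor eIF2, which lowers initiation and raises translation of Atf4. In mouse neurons, loss of Gtpbp1 or Gtpbp2 in a strain that lacks a functional neuronal arginine tRNA gives stalled ribosomes, GCN2 activation and neurodegeneration. Mutations of Nemf and of Ltn1 cause motor neuron or neuromuscular disease in mice.

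The 8 genes lie on 7 chromosomes of GRCm38.p6, as given by RefSeq, and all 8 are annotated as protein coding. Gtpbp1 spans bases 79690001 to 79721479 of chromosome 15. Gtpbp2 spans 46159227 to 46169370 of chromosome 17, which also holds Zfp598 at 24669687 to 24682023. Hbs1l lies on chromosome 10 from 21295979 to 21368889, and Eif2ak4 on chromosome 2 from 118388583 to 118475234. Gcn1 lies on chromosome 5 from 115565117 to 115622654. Ltn1 and Nemf are the only 2 of the 8 on the minus strand, Ltn1 on chromosome 16 from 87376651 to 87432619 and Nemf on chromosome 12 from 69311541 to 69357201. The span of 5 of the 8 genes meets no other RefSeq gene. Hbs1l overlaps 2 long non-coding genes, 4930455C13Rik on the opposite strand and Gm33803, Gcn1 holds the microRNA gene Mir7029, and Ltn1 holds the small nucleolar RNA gene Gm25896. The strand setting of the counting is not given in the sources used here, so reads of these overlapping genes could not be told from reads of their hosts.

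The start regions of 4 of the genes are shown because these are the 4 whose counting intervals, described further on, left out equal levels. Each is the 250 bases before a start given in the RefSeq promoter table on GRCm38.p6, written along the strand of the gene with CpG dinucleotides in capitals. They cover chr17:46160782-46161031 (plus strand) for Gtpbp2, chr16:87432607-87432856 (minus strand) for Ltn1, chr2:118388367-118388616 (plus strand, the first of 2 annotated starts) for Eif2ak4 and chr12:69357177-69357426 (minus strand) for Nemf. The start in that table is not always the outer end of the gene span given above. All 250 bases of Gtpbp2 lie inside its span, and so do 13 bases of Ltn1, 34 of Eif2ak4 and 25 of Nemf.
Gtpbp2: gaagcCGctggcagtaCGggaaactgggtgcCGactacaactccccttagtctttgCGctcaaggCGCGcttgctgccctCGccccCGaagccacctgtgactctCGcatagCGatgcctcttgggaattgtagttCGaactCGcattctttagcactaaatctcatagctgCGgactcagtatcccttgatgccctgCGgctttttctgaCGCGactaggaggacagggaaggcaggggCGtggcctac
Ltn1: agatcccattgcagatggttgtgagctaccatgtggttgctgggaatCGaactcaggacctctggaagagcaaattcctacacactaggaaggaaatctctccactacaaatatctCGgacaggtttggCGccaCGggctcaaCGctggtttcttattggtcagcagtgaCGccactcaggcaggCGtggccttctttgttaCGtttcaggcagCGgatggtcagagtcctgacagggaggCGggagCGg
Eif2ak4: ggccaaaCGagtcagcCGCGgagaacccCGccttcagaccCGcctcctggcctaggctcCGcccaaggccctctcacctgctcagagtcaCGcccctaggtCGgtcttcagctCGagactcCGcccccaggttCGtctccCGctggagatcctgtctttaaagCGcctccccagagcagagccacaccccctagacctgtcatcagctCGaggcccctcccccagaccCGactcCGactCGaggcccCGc
Nemf: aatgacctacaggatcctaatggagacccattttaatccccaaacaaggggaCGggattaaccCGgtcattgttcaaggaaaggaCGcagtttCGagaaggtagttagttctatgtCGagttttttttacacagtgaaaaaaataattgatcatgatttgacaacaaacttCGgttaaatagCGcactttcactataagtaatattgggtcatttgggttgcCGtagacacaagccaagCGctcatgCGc
These windows hold 17 CpG in Gtpbp2, 11 in Ltn1, 18 in Eif2ak4 and 10 in Nemf. Gtpbp1 has 17 CpG, Hbs1l 19, Gcn1 21 and Zfp598 20. The second start of Eif2ak4 has 9, the lowest of the 9 windows, and the median over 32851 windows of all genes is 6. The window of Nemf is the poorest in G and C among the 9, at 41.2%, against 70.4% in Gcn1 at the other end and a median of 52.4% over all windows. The letters TGATGNAAN, a form of the element bound by Atf4 with its partners, were searched on both strands. They are in 0 of the 9 windows and in 3.44% of all windows. This says only that these letters are not in these stretches.

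As a sum, the 8 genes took nearly the same share of reads in both libraries. The 8 genes together held 2763 reads in the wild-type library, or 0.0356% of the gene reads, and 1319 reads in the heterozygous library, or 0.0378%. After scaling by TMM, which sets the libraries to each other on the genes in common, the log2 ratio of the sums (heterozygous over wild type) was 0.034, with a 95% counting interval of -0.062 to 0.129. This interval is the exact binomial one and, like all intervals here, covers counting error only, not the differences between animals or between library preparations. A single library per genotype allows no test, so the ratios carry no p-value and describe these libraries only.

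The counting intervals of the sums by role all held equal levels. The GTPases Gtpbp1, Gtpbp2 and Hbs1l had 657 wild-type and 328 heterozygous reads, a log2 ratio of 0.098 (-0.097 to 0.292). Eif2ak4 and Gcn1l1 had 970 and 436 reads, a log2 ratio of -0.053 (-0.219 to 0.112), with Gcn1l1 holding most of both totals. Zfp598, Ltn1 and Nemf had 1136 and 555 reads, a log2 ratio of 0.067 (-0.082 to 0.215). The third sum holds Ltn1 and Nemf, whose intervals lay on opposite sides of equal levels.

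No member met the rule used across all genes. A call needed a sum of at least 100 reads over both libraries, a counting interval clear of equal levels, and a ratio of 1.5-fold or more. All 8 genes passed the read minimum, with 195 reads in Eif2ak4 at the lowest and 1211 in Gcn1l1 at the highest. Of the 8, 0 were called higher in the heterozygous library and 0 lower, where 8.14% of the 9726 tested genes were called higher and 11.2% lower. The interval alone, with no limit of fold, left out equal levels for 2 genes on the higher side and 2 on the lower side. The same was true of 23.7% of all tested genes on the higher side and 28.2% on the lower side, 51.9% in all, so 4 of 8 is near the background. The median log2 ratio of the 8 was 0.039, against -0.034 over all tested genes. All directions are relative to the gene reads, and with the ERCC spike-ins as the base instead the median of the 8 was -6.51 and that of all tested genes -6.58.

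**Figure D1:**
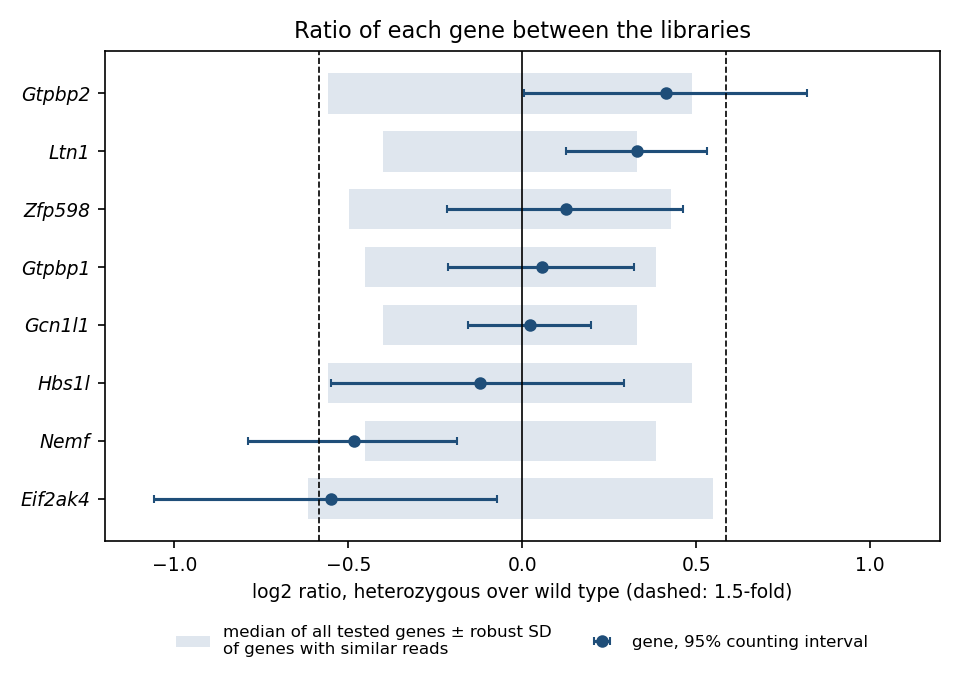
Log2 ratio, heterozygous over wild type, for each of the 8 genes (x axis, log2 units), with 95% counting intervals as bars. Shaded boxes give the median of all tested genes plus and minus the robust SD of genes with similar numbers of reads (1 of 10 equal groups). All 8 points lie between the dashed lines of 1.5-fold. Nemf, at 1.07 robust SD from the median, lies just outside its box, and Ltn1, at 0.996, just inside. A box of 1 robust SD leaves out many of all tested genes by construction.

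Among the GTPases, Gtpbp2 (ENSMUSG00000023952) had the largest positive ratio of the 8. It had 135 reads in the wild-type library, an RPKM of 5.84 (4.90 to 6.92, the exact Poisson interval at 95%), and 84 reads in the heterozygous library, an RPKM of 8.04 (6.42 to 9.96). RPKM, the deposited unit, divides the reads by the length of the gene and by the library total, and is the scale on which genes are compared with each other here. The scaled level was 1.33-fold as high in the heterozygous library, with an interval of 1.00 to 1.77 whose lower end just left out equal levels (0.0056 on the log2 scale). Its ratio exceeded that of 84.7% of all tested genes. Genes with like numbers of reads, 197 to 261 in both libraries together, had a robust SD of the log2 ratio of 0.52, and Gtpbp2 at 0.41 lay inside that spread.

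Gtpbp1 (ENSMUSG00000042535), the relative of Gtpbp2 that acts in the same process, had the highest RPKM of the 8 in both libraries. Counting error did not separate it from Gcn1l1 in either. Between the libraries, Gtpbp1 had nearly equal values. It had 361 reads and an RPKM of 13.4 (12.1 to 14.9) in the wild-type library, against 175 reads and an RPKM of 14.4 (12.4 to 16.7) in the heterozygous library. The ratio was 1.04-fold (0.863 to 1.25). Hbs1l (ENSMUSG00000019977) had 161 reads and an RPKM of 7.56 (6.44 to 8.82) in the wild-type library, against 69 reads and an RPKM of 7.17 (5.58 to 9.08) in the heterozygous library. Its ratio was 0.919-fold (0.683 to 1.23). The intervals of Gtpbp1 and Hbs1l both hold equal levels.

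In the GCN2 arm, the kinase and its activator stood far apart in level. Eif2ak4 (ENSMUSG00000005102) had the lowest level of the 8 in both libraries. It had 148 reads and an RPKM of 3.65 (3.08 to 4.28) in the wild-type library, against 47 reads and an RPKM of 2.56 (1.88 to 3.41) in the heterozygous library. At 0.683-fold (0.480 to 0.951), this was the largest difference of the 8 genes and stood just inside the 1.5-fold limit. It also rested on the fewest reads, and genes with 146 to 196 reads in both libraries together had a robust SD of 0.58 against its log2 ratio of -0.55. With the wild-type reads thinned once to the total of the other library, its log2 interval of -1.12 to 0.018 held equal levels.

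Gcn1l1 (ENSMUSG00000041638), which is 8555 nt long in the deposited scaling and longer than 96.0% of the listed genes, had the most reads. It had 822 reads and an RPKM of 12.3 (11.5 to 13.2) in the wild-type library, against 389 reads and an RPKM of 12.9 (11.7 to 14.3) in the heterozygous library. Its ratio of 1.01-fold (0.897 to 1.15) has the narrowest interval of the 8.

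The quality control genes held 1 gene whose interval lay above equal levels and 1 whose interval lay below. Ltn1 (ENSMUSG00000052299), the ubiquitin ligase of the large subunit, had 546 reads and an RPKM of 9.05 (8.31 to 9.84) in the wild-type library, against 320 reads and an RPKM of 11.7 (10.5 to 13.1) in the heterozygous library. Its level was 1.26-fold as high in the heterozygous library (1.09 to 1.45), and the interval left out equal levels. Nemf (ENSMUSG00000020982), its partner, had 372 reads and an RPKM of 10.1 (9.09 to 11.2) in the wild-type library, against 124 reads and an RPKM of 7.44 (6.19 to 8.88) in the heterozygous library. The ratio of Nemf was 0.715-fold (0.579 to 0.878). Its log2 ratio of -0.48 stood at a distance of 1.07 robust SD from the median of all tested genes, with an SD of 0.42 among genes of 448 to 602 reads. The distance for Ltn1 was 0.996 robust SD, on an SD of 0.37.

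Zfp598 (ENSMUSG00000041130), the collision sensor, had similar values in both libraries. It had 218 reads and an RPKM of 8.35 (7.28 to 9.53) in the wild-type library, against 111 reads and an RPKM of 9.41 (7.74 to 11.3) in the heterozygous library, a ratio of 1.09-fold (0.861 to 1.38). Across the 8 genes, 5 had intervals that left out a 1.5-fold difference in either direction, namely Gtpbp1, Hbs1l, Gcn1l1, Zfp598 and Ltn1. Over all tested genes 47.2% had such an interval. Thinning the wild-type reads left 3 of them, without Hbs1l and Ltn1, against 46.3% of the 8449 genes that were then tested. Scaling to total gene reads left 4, without Ltn1, whose upper end just passed the limit, against 46.6% of tested genes. For Gtpbp2, Eif2ak4 and Nemf a difference of 1.5-fold lies within counting error.

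**Figure D2:**
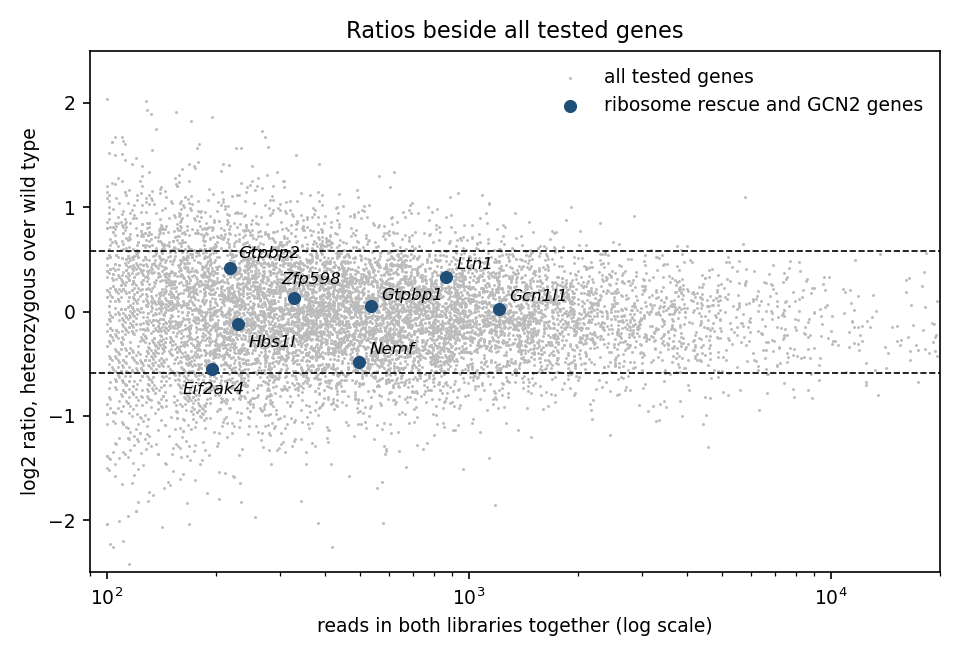
Log2 ratio, heterozygous over wild type (y axis), against reads in both libraries together (x axis, log scale) for the tested genes in grey and the 8 pathway genes in blue, with dashed lines at 1.5-fold. The cloud widens towards few reads and the 8 genes lie within it at every depth. Of the tested genes, 52 lie outside the axes.

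Partners in the same task can be set against each other within a library, which removes the scaling between libraries. Of 3 such pairs, chosen with the values known, Ltn1 and Nemf differed most between the libraries. The RPKM of Ltn1 was 0.897 times that of Nemf (0.785 to 1.03 by counting error at 95%) in the wild-type library and 1.58 times (1.28 to 1.96) in the heterozygous library. The reads of Ltn1 relative to Nemf were thus 1.76-fold as high in the heterozygous library, with an exact conditional interval of 1.37 to 2.27. On the log2 scale this is 0.81, against 0.56 for the robust SDs of both genes' read classes combined.

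The RPKM of Gcn1l1 was 3.38 times that of Eif2ak4 (2.84 to 4.06) in the wild-type library and 5.04 times (3.72 to 6.98) in the heterozygous library. The change of this ratio was 1.49-fold (1.04 to 2.16), or 0.58 on the log2 scale against a combined SD of 0.69. The RPKM of Gtpbp2 was 0.435 times that of Gtpbp1 (0.354 to 0.531) in the wild-type library and 0.558 times (0.425 to 0.728) in the heterozygous library. That change was 1.28-fold, and its interval of 0.912 to 1.80 held no change.

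**Figure D3:**
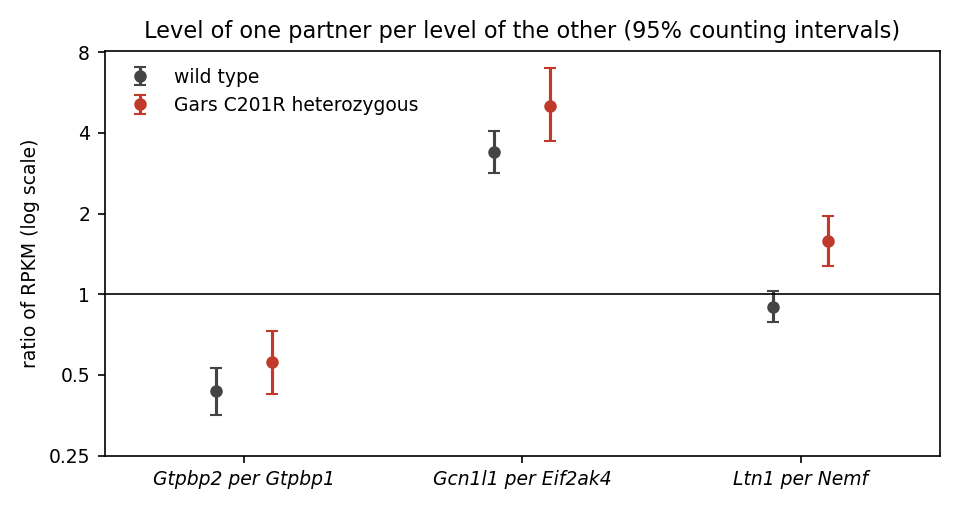
RPKM of one gene divided by that of its partner (y axis, log scale) in the wild-type and the heterozygous library, with 95% counting intervals. The pair of Ltn1 and Nemf moves from 0.897 to 1.58. The pairs were chosen with the values known, and how often other pairs of genes move as far was not tested.

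All 8 genes were above the lowest RPKM listed for any gene (0.183 for wild type, 0.501 for the heterozygous library). Any listed gene other than the lowest is above it, so this says nothing about detection. In the wild-type library the order from the highest RPKM was Gtpbp1, Gcn1l1, Nemf, Ltn1, Zfp598, Hbs1l, Gtpbp2 and Eif2ak4. Gtpbp1 exceeded 63.4% of the 12530 listed genes here (64.7% in the heterozygous library), and Eif2ak4 exceeded 27.9% (19.9% in the heterozygous library). The list holds no gene without reads in either library, so these are ranks among listed genes and not among all annotated genes. Of the 7 pairs of neighbours in this order, 3 differed beyond counting error. These were Gcn1l1 over Nemf at 1.22 times (1.08 to 1.39), Hbs1l over Gtpbp2 at 1.29 times (1.02 to 1.64) and Gtpbp2 over Eif2ak4 at 1.60 times (1.26 to 2.04). Gtpbp1 and Gcn1l1 were not told apart at 1.09 times (0.960 to 1.23), and neither were neighbours within the run of Nemf, Ltn1, Zfp598 and Hbs1l.

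In the heterozygous library the order was Gtpbp1, Gcn1l1, Ltn1, Zfp598, Gtpbp2, Nemf, Hbs1l and Eif2ak4. Nemf stood in the sixth place against the third in the wild-type library, and Gtpbp2 in the fifth against the seventh. No pair among Zfp598, Gtpbp2, Nemf and Hbs1l was told apart in the heterozygous library, so the order within this run is not settled. Of the 7 neighbour pairs 2 differed beyond counting error, Ltn1 over Zfp598 at 1.25 times (1.00 to 1.56) with a lower end of 1.003, and Hbs1l over Eif2ak4 at 2.80 times (1.90 to 4.15). Gtpbp1 came first, Gcn1l1 second and Eif2ak4 last in both libraries. At the top of the heterozygous order, Gtpbp1 was not told apart from Gcn1l1 at 1.12 times (0.928 to 1.34). Neither was Gcn1l1 from Ltn1, at 1.10 times (0.947 to 1.28). The lengths behind the RPKM values were those recovered from the deposited tables, 2733 nt in Hbs1l at the shortest and 8555 nt in Gcn1l1 at the longest. Whether they include untranslated parts is not given in the sources used here. Several are not a whole number of codons, such as 8555 nt in Gcn1l1 and 4732 nt in Nemf, so these are not single coding sequences. Ribosomes on a gene with long untranslated parts would give it a low RPKM. The order per coding length could therefore differ, also for pairs that counting error told apart, such as Gcn1l1 over Nemf.

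**Figure D4:**
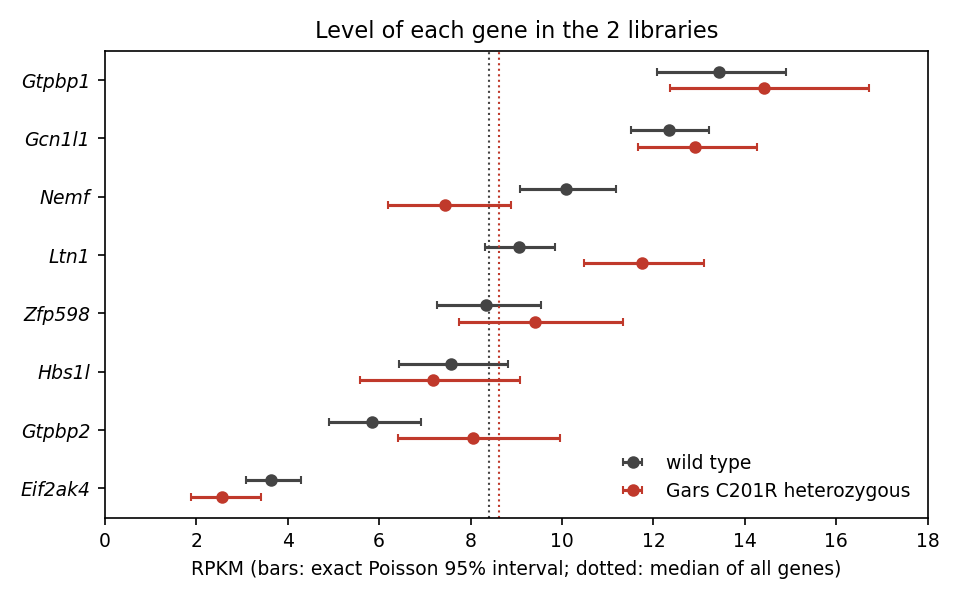
RPKM of each gene (x axis, linear) in the wild-type and the heterozygous library, with exact Poisson 95% intervals as bars and dotted lines at the median of all listed genes. Gtpbp1 and Gcn1l1 stand highest and Eif2ak4 lowest in both libraries, while Nemf is at 10.1 and 7.44 and Ltn1 at 9.05 and 11.7. In the heterozygous library counting error does not separate Gcn1l1 from Ltn1.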

How the data were processed

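Per the labels' protocols, lysates of 3 animals per genotype were pooled and RNase I footprints were made into 1 library each. Per the submitters' processing notes, Bowtie 1.2.2, HTSeq 0.9.1 and GRCm38 were used. Their settings, the removal of ribosomal RNA, the strand and the counted part of a gene were not stated in any source used here. Each file holds, per the file headers, the deposited count of reads and the RPKM of each gene. Gene lengths were recovered by dividing the counts by the deposited RPKM, which gives length times a library total. That total was searched upward from the listed reads until the lengths of the first rows were whole. The search gave 7790126 for wild type and 3520348 for the heterozygous library, both above the sums of the listed reads. With these totals the lengths of all rows were whole within 1e-05 nt and the same in both files.

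Counts of the 12530 genes, without the 18 ERCC spike-ins, were scaled with TMM (edgeR 4.0.16, R 4.3.3). Log2 ratios used a prior count of 0.5. Ratios and neighbours in the order of levels have exact conditional binomial intervals, and single counts exact Poisson intervals, all at 95% and for counting error only. Reads may not be independent molecules. The robust SD is 1.4826 times the median absolute deviation, over 10 groups of tested genes by reads. Simulated data with known ratios were used to test the rule for calls. They held counting error only, so they cannot show how the rule fares with differences between animals or preparations. Without replicate libraries no model of genotype was fitted. Intervals were computed with scipy 1.17.1 under Python 3.11.15.

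All 8 members are named whatever their values. The members, lists and partner pairs were chosen with earlier results of these data known. A wider pathway list and spinal cord markers were to be described, but 0 of the table identifiers could be paired with a symbol among 49997 RefSeq genes, so they are not analysed here. RefSeq locations and start regions of the members were found by symbol, with Gcn1 for Gcn1l1, and all 8 matched. Alternatives were scaling by upper quartile, by total count, by DESeq2 1.42.0 or without the genes that exceed 1% of a library, thinning, no prior count, other read minimums, a 99% interval, other fold limits, TPM and, added after seeing the data, scaling to the spike-ins.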

Additional observations from a re-analysis of the deposited data

Results flagged for a closer look

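The ERCC spike-ins, synthetic RNAs outside the 12530 genes compared, made up 0.650% of the listed reads in the heterozygous library and 0.00669% in the wild-type library. They stand out as a signal in data that the comparisons of Gtpbp1, Nemf and the other pathway genes do not use. The labels do not say whether or when they were added.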

How the results depend on the processing

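Under the planned scalings, thinning and the fit with no prior count, each of the 8 genes kept the sign of its log2 ratio, and the counts of called members stayed at 0 higher and 0 lower under these and under the other read minimums, the 99% interval and the 2-fold limit. A 2-fold limit, a wider interval and a higher minimum can only remove calls. Gtpbp2 lay between 0.41 and 0.50, Ltn1 between 0.33 and 0.38, Nemf between -0.49 and -0.43 and Eif2ak4 between -0.55 and -0.50. With no fold limit, 2 members were called higher and 2 lower, by construction. Scaling by spike-in reads, an alternative added after seeing the data, called 8 members lower, like all 9726 tested genes, and moved their median log2 ratio to -6.51, since it applies the same large shift to all genes. The order of levels was the same in TPM, which is RPKM times a constant. Levels per coding length were not run, because no protein table was used here, and the alternatives for the wider pathway list were not run either. No paired analysis was possible because each genotype has 1 library, and for the same reason no library could be left out. Depth limits Eif2ak4 most, with 47 heterozygous reads.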
